A study of Homo sapiens with 4 samples.

Results

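The regions described here are clusters of reads from an ADAR immunoprecipitation that fall in genes for long noncoding RNAs (lncRNAs). Most clusters of the replicate lists fell short of the threshold for enrichment over input that is defined below. The regions were chosen by position alone. The midpoint of a cluster had to lie inside the span of a lncRNA gene in the RefSeq annotation of GRCh38.p14 and outside every protein-coding or small RNA span. Clusters of the genes MIR17HG, MALAT1, NEAT1, NORAD, KCNQ1OT1, PVT1, DLEU2, CYTOR, LINC00534, LOC440910 and GAS5, and of the SNHG family, were left out. The rule took 27262 of 534161 clusters in replicate 1 (5.10%), 7780 of 155848 in replicate 2 (4.99%) and 59 of 1717 peaks in the authors' reproducible list, which combines the replicates (3.44%). They lay in 2014, 1024 and 21 lncRNA genes. The named genes left out held a further 1507 and 519 clusters and 47 reproducible peaks.

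The data were eCLIP libraries, in which protein is crosslinked to RNA with ultraviolet light and the RNA is sequenced from the immunoprecipitate. An ADAR1 antibody (CST #14175) gave 2 IP libraries, which stand beside 2 input libraries with no antibody, as replicates 1 and 2, all from untreated K562 cells, an established human line from a chronic myeloid leukaemia. After irradiation at 254 nm (400 mJ/cm2), RNase I shortened the RNA and a gel slice reaching 75 kDa over the protein was taken. Separate cultures are not mentioned for the replicates, whose differences can thus be technical, and the peak lists hold no expression values with which to check the cell type.

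ADAR1 is the deaminase that turns adenosine into inosine in double-stranded RNA, so its substrates are defined more by base pairing than by a sequence motif. Such pairing arises in long transcripts where inverted repeats fold back on each other, and lncRNA genes and introns are rich in repeats. Some lncRNAs are host transcripts of microRNAs, whose precursors are short hairpins, and ADAR enzymes are known to edit a number of those precursors.

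Sequences are shown for the clusters at microRNA hairpins, because replicate 1 was enriched there and the reference held the sequences. The hairpins are RefSeq sequences of GRCh38.p14, written 5′ to 3′, and capitals mark the bases covered by an enriched lncRNA cluster of replicate 1. The first is the hairpin of miR-210, a microRNA induced by low oxygen, at chr11:568089-568198 on the minus strand within MIR210HG.
MIR210: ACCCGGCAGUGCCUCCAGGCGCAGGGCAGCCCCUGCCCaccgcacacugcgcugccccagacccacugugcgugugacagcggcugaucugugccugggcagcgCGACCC
The let-7a-1 hairpin lies at chr9:94175957-94176036 and let-7d at chr9:94178834-94178920, both on the plus strand within MIRLET7A1HG, and let-7i at chr12:62603686-62603769 on the plus strand within MIRLET7IHG.
MIRLET7A1: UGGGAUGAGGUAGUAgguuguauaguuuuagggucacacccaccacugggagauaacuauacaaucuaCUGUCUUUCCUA
MIRLET7D: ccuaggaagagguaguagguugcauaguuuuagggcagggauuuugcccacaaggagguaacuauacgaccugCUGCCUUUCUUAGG
MIRLET7I: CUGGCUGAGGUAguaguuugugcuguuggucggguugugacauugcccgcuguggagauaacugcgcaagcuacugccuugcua
The next 3 are on the minus strand: miR-142, a microRNA of blood cells, at chr17:58331232-58331318 within MIR142HG, miR-24-2 at chr19:13836287-13836359 within MIR23AHG, and miR-9-1 at chr1:156420341-156420429 within MIR9-1HG.
MIR142: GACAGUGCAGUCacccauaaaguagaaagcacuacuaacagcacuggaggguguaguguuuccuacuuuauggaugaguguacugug
MIR24-2: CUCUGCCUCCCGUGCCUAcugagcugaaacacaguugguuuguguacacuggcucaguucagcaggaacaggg
MIR9-1: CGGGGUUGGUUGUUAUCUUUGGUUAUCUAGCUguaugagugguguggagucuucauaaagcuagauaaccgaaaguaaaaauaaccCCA

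The capitals sit at the ends of these hairpins. The choice of regions fixes that, since a cluster centred inside a hairpin lies in a small RNA span and was not counted. Folding with RNAfold paired 72.7% of the bases of the MIR210 hairpin, at a minimum free energy of -59.5 kcal/mol, and 82.5% of the let-7a-1 hairpin, at -34.2 kcal/mol. The mature microRNAs of the let-7 hairpins share 1 seed, the bases at positions 2 to 8 that pair with targets, which is in capitals below. The mature miR-210-3p is shown beside them for contrast, as its seed differs.
hsa-let-7a-5p: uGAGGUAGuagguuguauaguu
hsa-let-7d-5p: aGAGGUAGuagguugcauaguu
hsa-let-7i-5p: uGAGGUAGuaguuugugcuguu
hsa-miR-210-3p: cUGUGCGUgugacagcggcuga

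A cluster is called enriched here when its log2 fold of IP over input was at least 3 and its −log10 p at least 3, both as given in the authors' deposited lists. All fold values below are the authors', 1 per cluster. In replicate 1, 407 lncRNA clusters in 117 genes were enriched (1.49%, where 1.39% of all clusters of the list were called). In replicate 2, 742 in 270 genes were enriched (9.54%, where 12.8% of all clusters were called). The lncRNA share was thus near the list's background in replicate 1 and below it in replicate 2. Clusters in protein-coding genes were enriched at 1.34% and 13.1%, and clusters in no annotated gene at 1.60% and 11.9%. The median log2 fold of the lncRNA clusters was 0.07 in replicate 1, the same as over all clusters, and 1.59 in replicate 2, against 1.85 over all clusters. Median widths were 46 and 57 bases, against 47 and 59 over all clusters. Enriched clusters often touch, and merging them left 299 and 588 sites.

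The folds are ratios of few input reads. The steps between fold values gave whole IP and input reads for 404 of the 407 enriched clusters of replicate 1 and 735 of the 742 of replicate 2, with the others at the limit of the deposited −log10 p. Enriched clusters held a median of 81.5 IP reads and 2 input reads in replicate 1, and 19 IP reads and 2 input reads in replicate 2. They had 1 input read in 45.5% and 32.8% of cases. IP depth was 3.33 times input depth in replicate 1 and 0.553 times in replicate 2. The exact 95% interval of a fold, which covers counting error only, had a median width of 4.99 log2 units in replicate 1 and 5.23 in replicate 2. The order of folds among enriched clusters is therefore not resolved for most of them.

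The 59 reproducible lncRNA peaks formed 31 sites when touching peaks were merged, with a median length of 88 bases. Their log2 folds ran between 3.37 and 6.22 with a median of 4.74, against 4.62 over the whole list. An enriched cluster overlapped 56 of them in both replicates (94.9%, against 80.3% of the list), 57 in replicate 1 (96.6%, against 83.1%) and 58 in replicate 2 (98.3%, against 97%). The list was built from the same clusters, so these shares describe it and test nothing. Taking the cluster of each replicate with the largest overlap, the fold was higher in replicate 2 for 56 of the 59 peaks, with medians of 5.44 in replicate 2 and 3.87 in replicate 1. Some of the 57 peaks were met by an enriched replicate 1 cluster that was not the one of largest overlap. The largest-overlap cluster had a replicate 1 fold of 2.85 at a peak of LINC01002, 2.63 in LOC105369896 and 1.79 in LOC105376944. A few genes carried most peaks: 8 genes with 3 or more held 43, and 10 genes held 1 each.

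**Figure D1:**
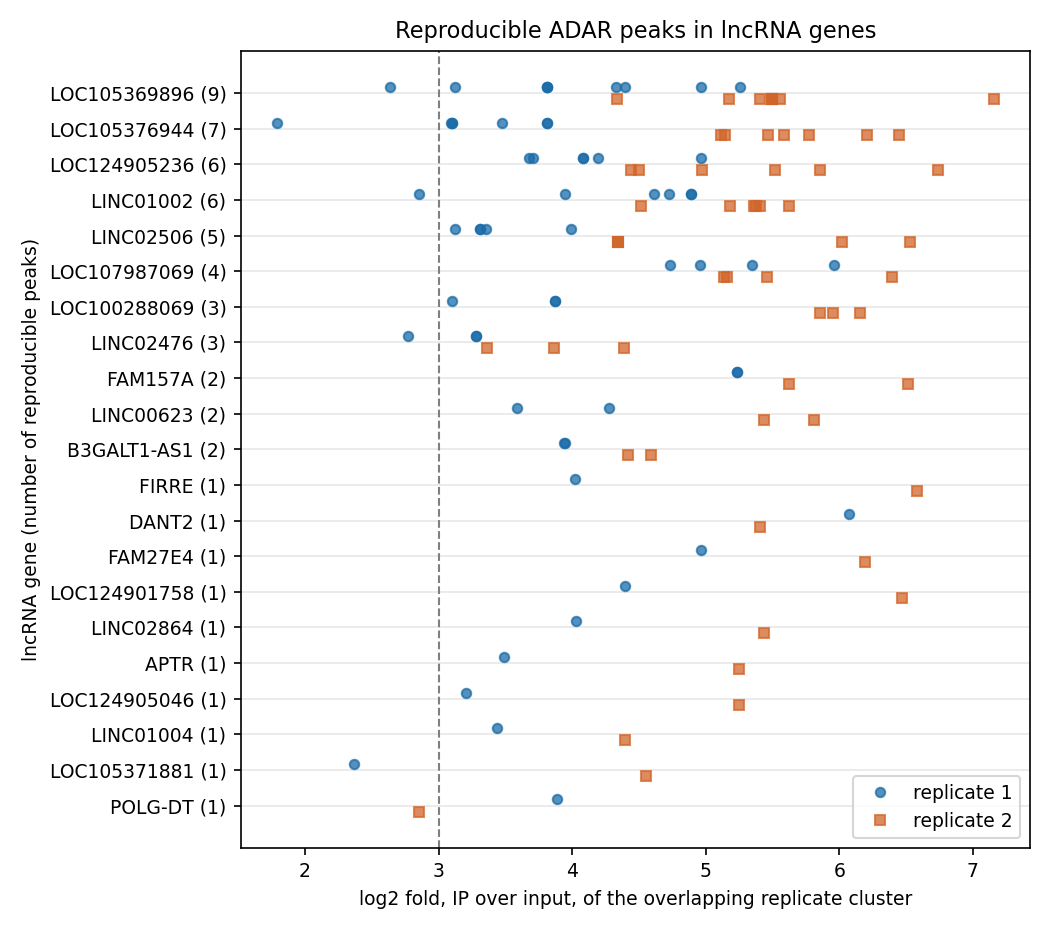
Log2 fold of IP over input in the replicate clusters that overlap each of the 59 reproducible lncRNA peaks, by gene, with circles for replicate 1, squares for replicate 2 and a dashed line at the log2 fold of 3 that defines enrichment. Replicate 2 was higher for 56 of the 59 peaks.

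LOC105369896, an uncharacterised lncRNA gene of 361170 bases on chromosome 12, held the most reproducible peaks, 9. They formed only 2 sites, at chr12:91531671-91531805 and chr12:91608024-91608169 on the minus strand, 76218 bases apart. Their folds in the authors' list reached 6.01 at the first site and 6.05 at the other. At the second site's highest peak, the most overlapping replicate 1 cluster had 127 IP reads over 1 input read (log2 fold 5.25). The most overlapping replicate 2 cluster had 75 over 3 (5.50). Both folds lie below the 6.05 listed for the peak, so these clusters alone do not give its value. The gene had 400 clusters in replicate 1, of which 13 were enriched, and 128 in replicate 2, of which 12 were enriched (9.38%, near the 9.54% of all lncRNA clusters there). Of its 13 enriched clusters in replicate 1, 10 met an enriched cluster of replicate 2.

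LOC105376944, on chromosome 3, had 7 peaks in the same arrangement. Its sites lay at chr3:6575416-6575526 and chr3:6667604-6667767 on the plus strand, with 92077 bases between them, and reached log2 folds of 5.12 and 4.83. Replicate 2 was much the higher at the first site, where the peak at 6575416 had a log2 fold of 5.59 in replicate 2 and 1.79 in replicate 1. That replicate 1 value came from 115 IP reads over 10 input reads, a ratio with an interval of 0.86 to 2.89. LINC02506, on chromosome 4, held 5 peaks at 2 sites 3270 bases apart, chr4:32060027-32060126 and chr4:32063397-32063448, with folds up to 5.22.

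The other genes with several peaks had them close together. LOC124905236 held 6 at chr X between 113931087 and 113931479, with folds of 3.90 to 5.43. LINC01002, a short gene of 5194 bases near the end of chromosome 19, held 6 peaks between 199647 and 200380, with folds of 3.86 to 5.15. Nearly all clusters of that gene were enriched: 6 of 8 in replicate 1 and 8 of 8 in replicate 2, with medians of 246.5 and 84 IP reads over 3 and 5 input reads. LOC100288069 held 3 peaks on chromosome 1, between 727197 and 727295, and LINC02476 held 3 on chromosome 7, between 119841959 and 119844924. The LINC02476 peak at 119841959 was 1 of the 2 reproducible lncRNA peaks that no enriched replicate 1 cluster overlapped, with a log2 fold of 4.39 in replicate 2 and 2.77 in replicate 1.

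LOC107987069, on chromosome 9, was the one gene of known strand whose reproducible peaks ran against it. Its 4 peaks, between 65391075 and 65391586 on the plus strand, reached 6.22, the highest fold of any reproducible lncRNA peak. At that peak replicate 1 had 207 IP reads over 1 input read (log2 fold 5.96) and replicate 2 had 140 over 3 (6.40). All 7 clusters of the gene in each replicate were on the plus strand, while the gene is annotated on the minus strand. The peaks lay beside 21 other reproducible peaks in no annotated gene, on the same strand between 65385728 and 65390640, the nearest 435 bases away, with folds of 3.22 to 7.59. The deposited values place these 4 peaks at the edge of that larger group.

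Genes with 1 or 2 reproducible peaks included several with a described function. FIRRE, an X-linked nuclear lncRNA that holds distant chromosomal regions together and carries local repeats, had 1 peak at chrX:131744932-131745004 with a log2 fold of 5.75. DANT2, transcribed beside the macrosatellite DXZ4 on the X chromosome, had 1 at chrX:115945109-115945171 with 5.74, from 47 IP reads over 2 input reads in replicate 2 and 224 over 1 in replicate 1. APTR, a lncRNA that represses the cell cycle inhibitor p21, had 1 at chr7:77695443-77695516 with 4.37. FAM157A had 2 touching peaks of 5.88 and 4.59. The replicate clusters that overlapped them most were at the limit of −log10 p. The peak of 4.59 was itself listed at a −log10 p of 21.5, with a fold below those of its clusters (5.24 and 5.63). The remaining genes were LINC00623 and B3GALT1-AS1 with 2 peaks each, and FAM27E4, LOC124901758, LINC02864, LOC124905046, LINC01004 and LOC105371881 with 1 each, at folds between 3.47 and 5.58. LOC105371881 held the other peak that no enriched replicate 1 cluster overlapped, with a log2 fold of 2.37 in replicate 1.

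POLG-DT, divergent from the gene of the mitochondrial DNA polymerase, is a special case. Its peak, chr15:89335139-89335155, had a log2 fold of 3.37, the lowest of the 59, and overlapped the arginine tRNA gene TRR-TCG1-1 at 89335073 to 89335145. Another 3 reproducible peaks, which adjoin one another and end at 89335138, were centred in that tRNA gene and were not counted. The replicate 2 cluster there, with a log2 fold of 2.85, was also centred in the tRNA gene. POLG-DT thus entered by 1 peak whose midpoint lay just past the end of a tRNA gene.

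Across genes, 76 had an enriched cluster in both replicates, which is 65.0% of the 117 in replicate 1 and 28.1% of the 270 in replicate 2. Among protein-coding genes 1611 did, which is 76.7% of 2100 and 37.0% of 4356. Replicate 1 alone had 41 genes, of which 11 had no lncRNA cluster at all in replicate 2. Replicate 2 alone had 194 genes, of which 2 had no cluster in replicate 1. Of protein-coding genes, replicate 1 alone had 489, of which 36 had no cluster in replicate 2. Replicate 2 alone had 2745 protein-coding genes, of which 1 had no cluster in replicate 1. Single calls were common, with 54 and 132 genes holding 1 enriched cluster.

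By position, 131 of the 407 enriched clusters of replicate 1 overlapped an enriched cluster of replicate 2 by at least 1 base on the same strand. That is 32.2% (exact 95% interval 27.7% to 37.0%, counting error only), against 41.9% of all enriched clusters of replicate 1. Leaving out MIR3667HG and LINC01667, which are described next, the lncRNA share was 44.2%. Both genes were chosen after seeing the data. Only 1 of 67 and 4 of 55 of their enriched clusters met an enriched one of replicate 2. Leaving them out thus raises the share by construction, and the 41.9% still includes them. In the other direction, 121 of the 742 enriched clusters of replicate 2 overlapped one of replicate 1, 16.3% (13.7% to 19.2%), against 14% of all. Clusters are not independent, and the lncRNA clusters are part of the totals they are set beside. Most of the enriched clusters of replicate 2, 87.6%, did overlap some cluster of replicate 1, enriched or not, against 88.4% of all. For enriched clusters of replicate 1 overlapping some cluster of replicate 2, the shares were 56.8% and 64.0%.

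MIR3667HG and LINC01667 held 122 of the 407 enriched lncRNA clusters of replicate 1 and 4 of the 742 of replicate 2. MIR3667HG is a microRNA host gene of 242996 bases on chromosome 22, and 67 of its 406 replicate 1 clusters were enriched, spread between 49489298 and 49656622, with a median log2 fold of 3.46 among them. In replicate 2 it had 213 clusters and 1 enriched. Of the 67 positions, 20 had a replicate 2 cluster at all, with a median log2 fold of 1.27 there. Without both genes, replicate 1 had 285 enriched lncRNA clusters, 1.06% of those left.

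LINC01667 lies on chromosome 21 at 9781848 to 9821061. In replicate 1, 55 of its 59 clusters were enriched, with a median log2 fold of 4.24 and a highest of 7.65. In replicate 2, 3 of 21 were enriched, with a median over the 21 clusters of 2.53 and a highest of 4.31. The median over all clusters of the lists was 0.07 in replicate 1 and 1.85 in replicate 2. The sources used here do not state how reads that align to several places in the genome were counted, so values of genes with near-identical copies, such as FAM27E4 and FAM157A, are uncertain.

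**Figure D2:**
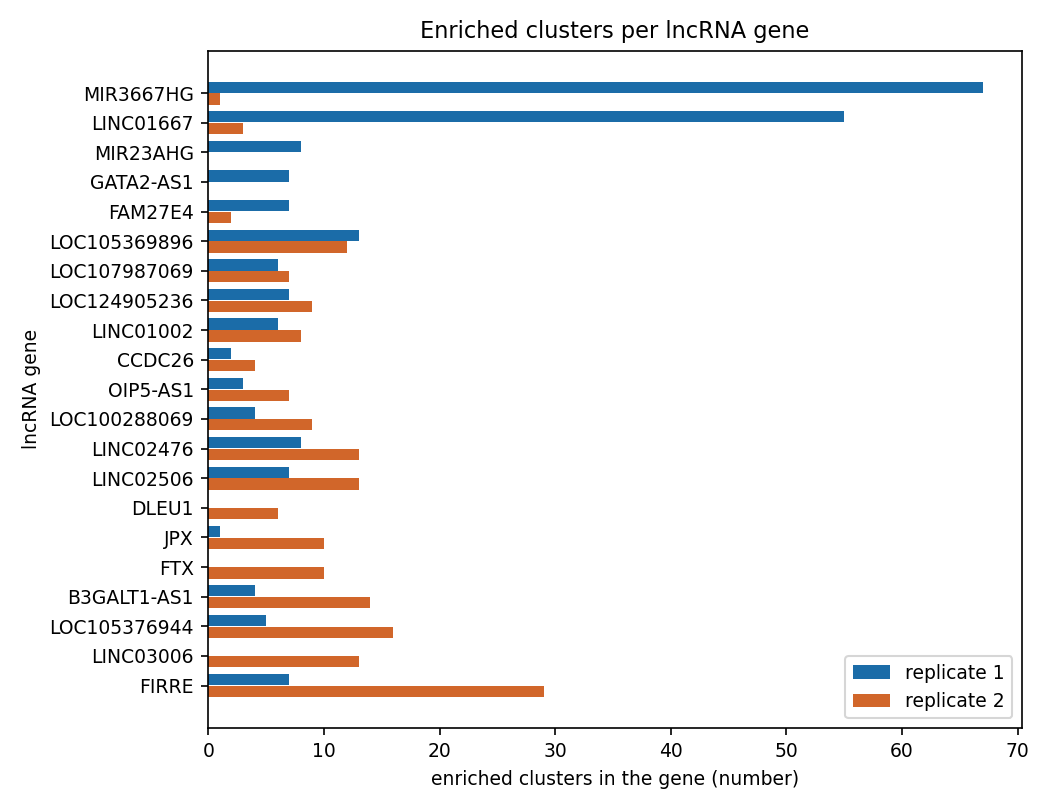
Number of enriched clusters in replicate 1 and replicate 2 for lncRNA genes named by rule that held 6 or more in all. MIR3667HG and LINC01667 had 67 and 55 in replicate 1 and 1 and 3 in replicate 2, while FIRRE had 29 in replicate 2 and 7 in replicate 1.

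Replicate 2 was led by other genes. FIRRE had 29 enriched of 62 clusters there, against 7 of 153 in replicate 1. All 7 replicate 1 positions were enriched in replicate 2 as well, at a median log2 fold of 5.71. The highest, the reproducible peak at 131744932, had 53 IP reads over 1 input read in replicate 2 (log2 fold 6.58). Touching replicate 1 clusters over it had 99, 87 and 54 IP reads over 1 input read (4.90, 4.71 and 4.02). Each fold is scaled by the IP and input depth of its replicate. FIRRE clusters at 29 positions enriched in replicate 2 had a median log2 fold of 2.27 in replicate 1.

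LINC03006 on chromosome 7 had 13 enriched of 57 clusters in replicate 2 and 0 of 103 in replicate 1, where its highest fold was 3.07. LOC105376944 had 16 of 190 in replicate 2 and 5 of 340 in replicate 1, B3GALT1-AS1 had 14 of 61 and 4 of 137, and LINC02506 had 13 of 67 and 7 of 173. GARS1-DT, divergent from the gene of glycyl-tRNA synthetase, reached a log2 fold of 7.41 in replicate 2 from 94 IP reads over 1 input read, and had 0 enriched of 42 clusters in replicate 1. The highest lncRNA fold of either replicate, 8.32, was in LOC124909415 in replicate 1. It came from 4 touching rows between 117026338 and 117026363 on chromosome 3 with the same 1064 IP reads over 1 input read, and replicate 2 had no lncRNA cluster in that gene. Other high folds did fall at reproducible peaks, among them LOC105369896 at 7.16 and FIRRE at 6.58 in replicate 2, and DANT2 at 6.07 and LOC107987069 at 5.96 in replicate 1.

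Pairing each cluster with its mutual best overlap in the other replicate gave 3949 pairs. Their log2 folds correlated at a Pearson r of 0.51 and a Spearman rho of 0.47 over these pairs, against 0.52 and 0.48 over all 87894 pairs of the lists. The pairs share 4 libraries and are not independent, so no p is given. The median log2 fold was 1.68 in replicate 2 and 0.59 in replicate 1, the median difference of replicate 2 minus replicate 1 was 1.13, and replicate 2 was higher in 3079 pairs. Over all pairs of the lists the median difference was 1.36. Among the 98 pairs enriched in both, from 53 genes, medians were 4.57 in replicate 2 and 3.73 in replicate 1. A further 471 pairs were enriched in replicate 2 alone and 75 in replicate 1 alone. Over all 87894 pairs of the lists, 2145 were enriched in both, 13233 in replicate 2 alone and 1244 in replicate 1 alone. With denominators of at least 5 in the reduced read ratio of both replicates, which keeps 644 pairs, the median difference was 0.43.

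**Figure D3:**
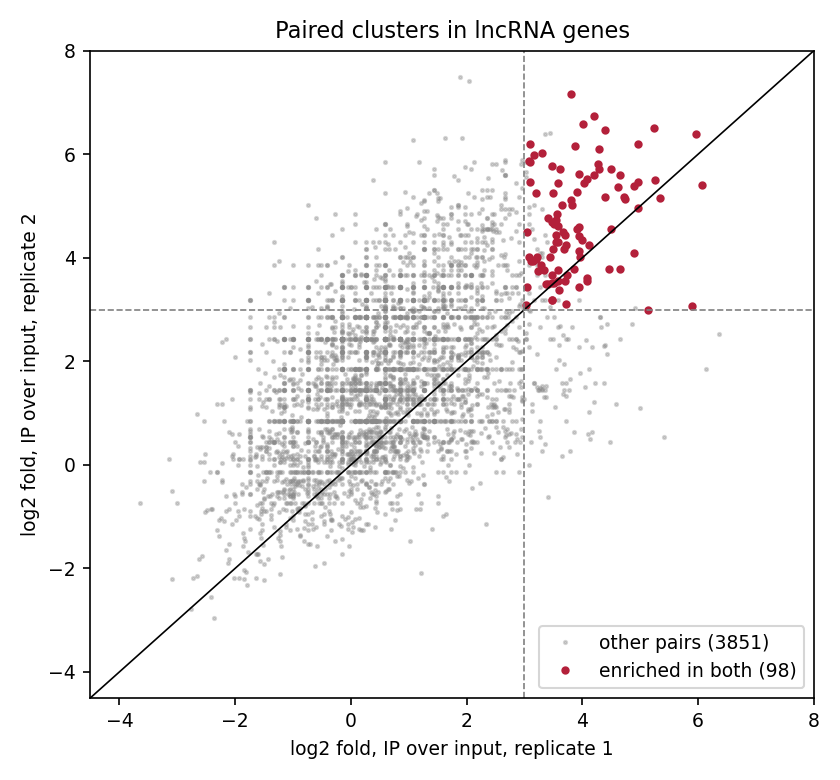
Log2 fold of IP over input in replicate 2 against replicate 1 for 3949 pairs of overlapping lncRNA clusters, with the line of equal folds. Red points are the 98 pairs enriched in both, and 3079 of the 3949 pairs had the higher fold in replicate 2.

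LncRNA genes were grouped by their symbols. The microRNA host genes stood apart in replicate 1, with 108 enriched of 1837 clusters (5.88%), but 67 of these were from MIR3667HG, and without it 41 of 1431 were enriched (2.87%). In replicate 2, 27 of 518 microRNA host clusters were enriched (5.21%), and without MIR3667HG, which held 213 of them, 26 of 305 (8.52%). Genes with LINC symbols had 1.63% enriched in replicate 1 and 9.11% in replicate 2, and without LINC01667 0.824% and 9.05%. The uncharacterised LOC genes had 1.01% and 10.0%. Antisense genes had 0.993% and 10.4%, and divergent genes 0.520% and 6.91%. With MIR17HG left out by the choice of regions, no microRNA host gene held a reproducible peak, while LOC genes held 32, LINC genes 18, antisense genes 2, divergent genes 1 and other genes 6.

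**Figure D4:**
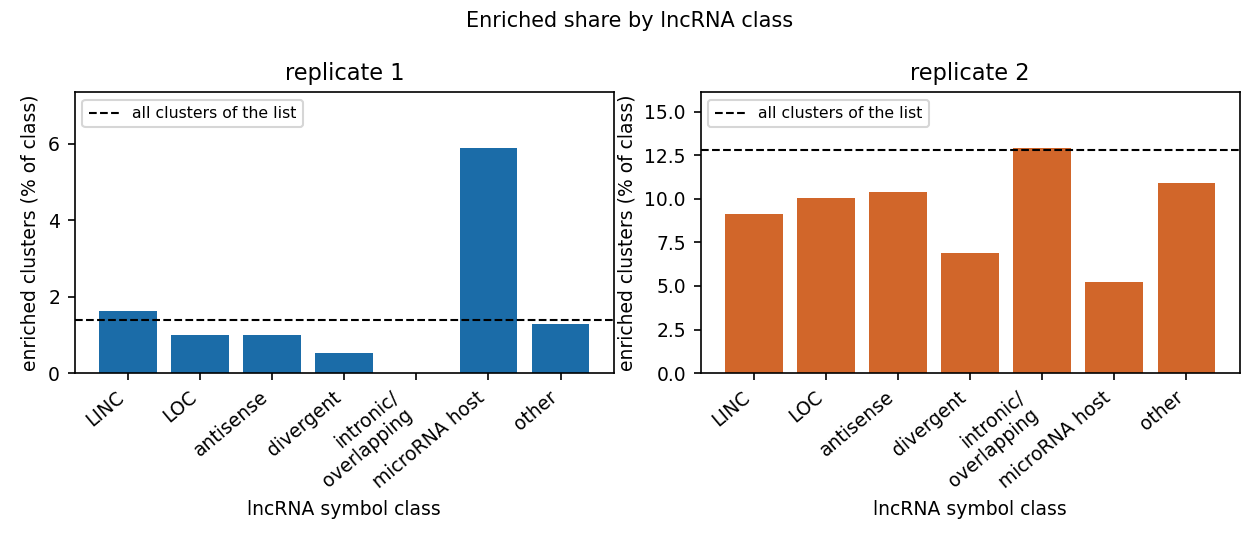
Share of clusters that were enriched, in percent, for each class of lncRNA gene by symbol, with a dashed line at the share over all clusters of the list (1.39% in replicate 1, 12.8% in replicate 2). The microRNA hosts stood at 5.88% in replicate 1 and 5.21% in replicate 2, and without MIR3667HG, which the bars include, at 2.87% and 8.52%.

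Clusters with an edge within 500 bases of an annotated microRNA hairpin on the same strand were examined next, a window chosen after values were seen. In replicate 1, 27 of 96 such lncRNA clusters were enriched (28.1%), against 380 of 27166 elsewhere (1.40%), and the median log2 fold was 1.91 near hairpins and 0.05 elsewhere. In replicate 2, 0 of 16 were enriched near hairpins, against 742 of 7764 elsewhere (9.56%). That count of 0 allows a share of up to 18.8%, an approximate limit that takes clusters as independent. The median log2 fold in replicate 2 was 0.57 near hairpins and 1.59 elsewhere. The share in replicate 2 therefore does not show a difference near hairpins in either direction. With a window of 200 bases, replicate 1 had 24 of 65 clusters enriched and replicate 2 had 0 of 11, and with 1000 bases 28 of 130 and 2 of 33. MIR3667HG contributed none of the 27.

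The 27 clusters lay in 8 of the 33 genes with a replicate 1 cluster near a hairpin. MIR210HG had 7 of 7 enriched, reaching 5.18 from 363 IP reads over 3 input reads. MIRLET7A1HG had 5 of 17, up to 4.55, and MIR23AHG, the host of miR-23a, miR-27a and miR-24-2, had 5 of 8, up to 4.48. MIR142HG had 4 of 9, up to 3.65, at the −log10 p limit and with a deeper input than most: the cluster at 58331398 had 1115 IP reads over 27 input reads. MIR9-1HG and MIRLET7IHG had 2 each, and MIR503HG and ENTPD1-AS1, which holds the miR-3157 hairpin, had 1 each. The other 25 genes had 0 enriched there, among them MIR223HG, host of a myeloid microRNA, with 5 clusters up to 2.17.

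In replicate 2 the same hosts had few clusters near the hairpins and low folds. MIR210HG had 2, with log2 folds of 0.51 and 1.10, MIR142HG had 3, between 0.17 and 0.89, and MIR23AHG had 1, at 0.44. MIRLET7IHG had 1, at 2.44. Clusters centred inside the 9 hairpins that enriched replicate 1 clusters touch, which are outside the chosen regions, numbered 11 in replicate 1, of which 5 were enriched, and 3 in replicate 2, of which 1 was enriched, at miR-3157 with a log2 fold of 5.76. The replicate 2 cluster inside the let-7i hairpin had a log2 fold of 3.85 but missed the −log10 p threshold, against 1.73 for the replicate 1 cluster inside it, and that inside the miR-142 hairpin had 1.59, against 2.80 in replicate 1. The other 6 hairpins had no replicate 2 cluster centred in them.

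**Figure D5:**
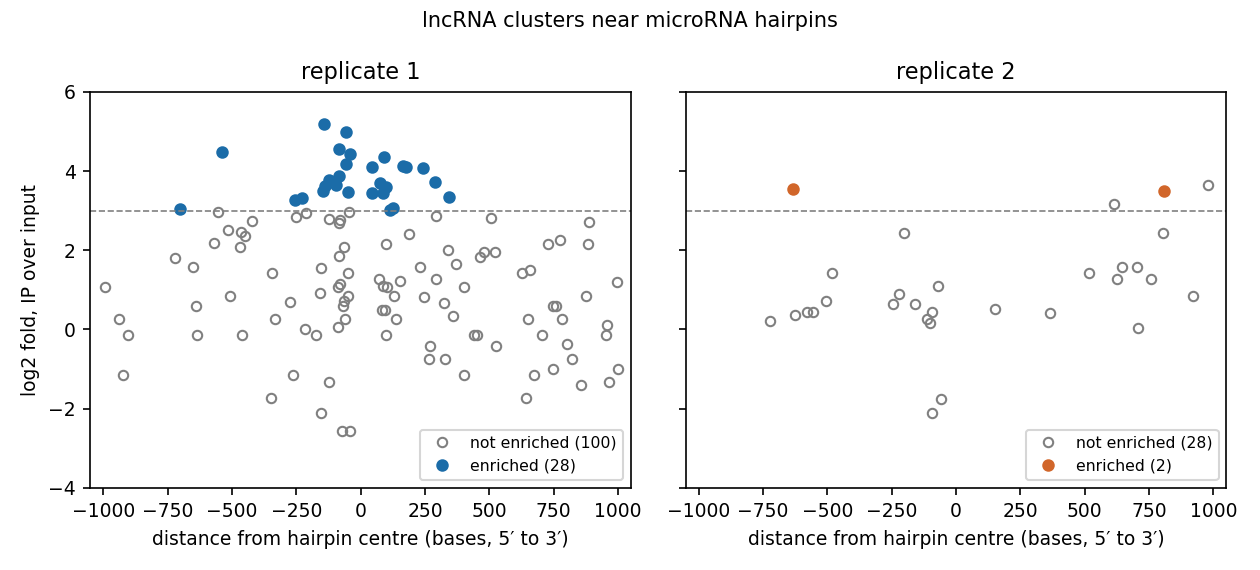
Log2 fold of IP over input of lncRNA clusters by distance of their midpoint from the centre of the nearest microRNA hairpin, in bases along the transcript, in replicate 1 and replicate 2, with filled points for enriched clusters and a dashed line at 3. Within 500 bases of a hairpin's centre, replicate 1 had 26 of 88 clusters enriched and replicate 2 had 0 of 13.

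Among 36 lncRNAs listed for a known regulatory role, 18 held a cluster. In replicate 1, 14 of their 1299 clusters were enriched in 5 of 18 genes (JPX, OIP5-AS1, ZFAS1, FIRRE and CCDC26). In replicate 2, 68 of 466 were enriched in 8 of 14 genes (MEG8, JPX, FTX, OIP5-AS1, LINC-PINT, FIRRE, DANCR and CCDC26). Over all lncRNA genes with a cluster, 5.81% had an enriched one in replicate 1 and 26.4% in replicate 2. The listed genes held many clusters each, 1299 in 18 genes in replicate 1, against 27262 in 2014 over all lncRNA genes. Per cluster, 1.49% of all lncRNA clusters were enriched in replicate 1 and 9.54% in replicate 2. FIRRE held 29 of the 68 in replicate 2.

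JPX, a lncRNA with a role in X inactivation, had 10 enriched of 64 clusters in replicate 2 (15.6%) and 1 of 161 in replicate 1 (0.62%). Over all clusters of the lists, 12.8% and 1.39% were called. FTX had 10 of 51 in replicate 2 (19.6%) and 0 of 179 in replicate 1. OIP5-AS1, a conserved cytoplasmic lncRNA that binds the protein HuR, had 7 of 38 in replicate 2 (18.4%) and 3 of 71 in replicate 1 (4.23%). Both replicates called OIP5-AS1 at 41297171 to 41297224 of chromosome 15: replicate 2 with 57 IP reads over 9 input reads (log2 fold 3.52) and replicate 1, in a cluster starting at 41297178, with 74 over 2 (3.48). MEG8, an imprinted lncRNA, had 3 clusters in replicate 2, all enriched at 5.61, each from 27 IP reads over 1 input read. They formed 2 sites, so touching rows among them may repeat 1 measurement. In replicate 1 MEG8 had 3 clusters, up to 2.66. CCDC26, a lncRNA gene altered in myeloid leukaemia, was among the genes with the most clusters (475 and 191), of which 2 and 4 were enriched. ZFAS1, a host of small nucleolar RNAs, had 1 enriched of 19 in replicate 1 and 0 of 11 in replicate 2.

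Among 25 lncRNAs listed for blood cells, 9 held a cluster. In replicate 1, 7 of their 407 clusters were enriched, where 1.49% of all lncRNA clusters were. All 7 lay in GATA2-AS1, the antisense transcript of the haematopoietic regulator GATA2. Its 7 enriched of 22 clusters lay between 128494277 and 128497809 on chromosome 3 with log2 folds of 3.12 to 4.94, the highest from 102 IP reads over 1 input read. In replicate 2 it had 10 clusters, none enriched, with a median log2 fold of 2.26 and a highest of 2.97, against a median of 1.85 over all clusters of that list. In replicate 2, 6 of the list's 87 clusters were enriched, where 9.54% of all lncRNA clusters were. All 6 lay in DLEU1, which had 0 of 332 in replicate 1.

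The strand of a host gene was known for 11462 of 18303 lncRNA genes. Where it was known, 95.1% of the clusters in replicate 1 and 94.0% in replicate 2 lay on the gene's own strand, and 95.7% and 94.5% of the enriched ones. A midpoint in 2 or more lncRNA spans, as for 1699 and 512 clusters, was given to a gene on the cluster's strand first. That choice can raise these shares. Among hosts of unknown strand with at least 5 clusters, 230 of 233 and 110 of 110 had at least 80% of them on 1 strand. No enriched lncRNA cluster of either replicate overlapped an enriched cluster on the other strand. Of the reproducible peaks, 35 were sense, 4 were antisense and 20 had no annotated host strand. With hosts assigned in this way, the clusters were nearly all of 1 strand per gene.

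Position along the gene was examined for sense clusters in genes over 10 kb. In replicate 1, 39 of 178 enriched clusters (21.9%) lay in the first 3 kb, against 8.70% of all lncRNA clusters, and 18 of the 39 were from LINC01667. In replicate 2 the shares were 7.81% and 8.26%. The last 3 kb held 5.06% of the enriched clusters of replicate 1 and 4.79% of those of replicate 2, against 2.84% and 2.67% of all. Reproducible lncRNA peaks lay a median of 285597 bases from the nearest protein-coding gene, with touching peaks of 1 site counted separately. Over all lncRNA clusters the medians were 114613.5 bases in replicate 1 and 113365 in replicate 2. Of the 59 peaks, 9 (15.3%) lay within 5 kb of a protein-coding gene, against 10.8% and 11.2% of all lncRNA clusters. Those 9 include all 6 peaks of LINC01002.

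One cluster found enriched in both replicates lay wholly inside a RefSeq promoter window (250 bases before to 50 after a gene's start), so its sequence could be read. It lies in FAM27E4 at chr9:61862725-61862836 on the plus strand. The window is that of LOC105379807, on the minus strand, and FAM27E4 itself starts at 61855760. Replicate 1 had 79 IP reads over 2 input reads (log2 fold 3.57) and replicate 2 had 48 over 3 (4.85). Capitals mark the 84 bases covered in both replicates, and 61.6% of the stretch is G or C.
FAM27E4: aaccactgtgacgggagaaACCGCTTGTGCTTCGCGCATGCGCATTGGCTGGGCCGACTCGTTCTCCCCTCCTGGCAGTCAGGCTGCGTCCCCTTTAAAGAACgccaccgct
This stretch is not in the reproducible list. The reproducible peak of FAM27E4 lay elsewhere in the gene, at chr9:61860115-61860202, with a log2 fold of 5.58, from 81 IP reads over 2 input reads in replicate 2 and 104 over 1 in replicate 1.

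By chromosome, the enriched lncRNA clusters of replicate 1 were most numerous on chromosomes 22 (76, of which 67 in MIR3667HG) and 21 (65, of which 55 in LINC01667). Without those genes the enriched shares there were 1.19% and 0.994%. In replicate 2 the X chromosome held 71 enriched of 360 lncRNA clusters (19.7%), against 11.3% of all clusters on X, and without FIRRE 42 of 298 (14.1%). This was not particular to X. Chromosome 20 held 24 of 127 (18.9%), against 13.6% of all its clusters, and without its leading gene 17 of 78 (21.8%). X also held 8 of the 59 reproducible lncRNA peaks, in LOC124905236, FIRRE and DANT2.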

How the data were processed

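The measurements were ADAR1 eCLIP libraries from K562 cells, 2 IP and 2 input, deposited as 3 peak lists: 1 per replicate, each IP set against the input of the same number, and 1 that combines the replicates. Reads were processed with cutadapt 1.9 and STAR 2.4.0i, per the submitters' processing notes. Neither the peak caller, nor the handling of multiply aligned reads, nor the way the replicates were combined is stated in the sources at hand. Each row of the deposited lists gives a −log10 p-value of up to 400 and a log2 fold, both computed by the authors from IP against input.

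Host genes were RefSeq spans of GRCh38.p14, with small RNA spans limited to 400 bases. Strand came from the RefSeq promoter table. Where several lncRNA spans held a midpoint, the gene on the cluster's strand was taken, then the shorter. Coordinates count from 1.

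Library totals are not stated. Whole reads were recovered from the steps between folds, with 3 IP reads over 1 input read assumed at the commonest fold, and accepted where an exact binomial or chi-square p matched the authors' −log10 p within 0.02. An input of 1 read may stand for 0. Intervals are exact Clopper-Pearson 95% intervals, except the limit given for a count of 0 near hairpins, which is approximate. The procedure was tested on simulated data. Each replicate gives 1 value per cluster, so no test across samples was made.

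Genes named are those with 3 or more reproducible peaks, of the 10 highest reproducible folds, the 5 with the most enriched clusters, the highest folds or the most clusters, and members of the lists with an enriched cluster. Genes near hairpins and others with a reproducible peak were named after their values were seen. The regions and lists were chosen with earlier results of these data known. Python 3.11.15, pandas 2.3.3, scipy 1.17.1 and RNAfold 2.7.2 were used.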

Additional observations from a re-analysis of the deposited data

How the results depend on the processing

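Of 50 values recomputed under other settings, 35 stayed within the limits set for a change, 15 moved and 0 reversed. At a log2 fold of at least 2, replicate 1 had 758 enriched lncRNA clusters. At a log2 fold of at least 4, replicate 1 had 142, replicate 2 had 425 and 28 genes were enriched in both. At a −log10 p of at least 5, replicate 2 had 464, 45 genes were enriched in both, and 27.4% of the enriched clusters of replicate 1 were overlapped by one of replicate 2. Without MIR3667HG and LINC01667, a setting chosen after seeing the data, that share was 44.2%. Counting an overlap only where no more of the cluster lay outside it than inside, 13.5% of the enriched clusters of replicate 2 were overlapped by one of replicate 1. Merging touching peaks left 31 reproducible sites. Over paired clusters, Pearson r was 0.37 where both had a −log10 p of at least 3. The median difference of replicate 2 minus replicate 1 was 0.67 there, and 0.43 with reduced denominators of at least 5. The genes enriched in the replicate that remains numbered 117 to 270 when the other was left out. Fewer clusters pass a stricter threshold by construction, and the cause of the other moves was not tested.

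No paired analysis was possible because the results come from no test across samples: IP and input are already joined in every fold, and the clusters of the replicates have different intervals. The enriched clusters held a median of 2 input reads in each replicate, so folds at single clusters are imprecise, and a cluster not listed in 1 replicate is not shown to be unbound there.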

Other observations

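At the edges of the choice of regions, 43 chosen clusters of replicate 1, 8 of replicate 2 and 1 reproducible peak touched a protein-coding or small RNA span without their midpoint lying in it. Of these, 15, 1 and 1 were enriched or listed. In the reproducible list, the log2 fold of 19 of the 59 lncRNA peaks equalled the mean of an overlapping replicate 1 and replicate 2 cluster, and the −log10 p of 33 equalled the lower of such values, within a tolerance of 1e-06. The interval was the same as that of a replicate 1 cluster for 24 and of a replicate 2 cluster for 36. Some touching rows carry the same fold and the same p, 30 among the enriched lncRNA clusters of replicate 1 and 40 among those of replicate 2, so they repeat 1 measurement.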
